A study of Homo sapiens with 6 samples.

Results

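The genes described here are 51 regulators of the cell division cycle: cyclins, cyclin-dependent kinases (CDKs), CDK inhibitors, the E2F transcription factors, the retinoblastoma (RB) pocket proteins, and the CDC25, WEE1 and SKP2 genes that switch CDKs on and off. They were taken as a list of gene symbols. Each gene was read by the probe set that names it alone, and by the brightest of these where there were several. A probe set is a group of short oligonucleotides on the array that together report 1 transcript. Of the 51 genes, 50 had such a probe set, among 19775 genes in the whole series, and 48 were bright enough to be tested.

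Messenger RNA was measured on 6 Affymetrix arrays, 1 sample per array. By their labels, 3 arrays hold cells transfected with an siRNA against RNF43, and the other 3 cells given a negative control siRNA. RNA was collected 48 h later, and the label of all cells is HepG2, an established human liver cancer line. RNF43 is a membrane ubiquitin ligase that dampens Wnt signalling, and a single siRNA against it was used. Arrays of a group are called biological replicates by the labels, with no mention of separate cultures. The p-values therefore speak only of spread among these 6 arrays, which may in part be technical. A total of 11853 genes were tested with limma, and "rose" or "fell" is written only where the p adjusted over all of them was under 0.05. All levels are log2 signals, on which a difference of 1 is a doubling.

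Cyclins are regulatory subunits that activate CDKs in a set order. Cyclin D with CDK4 or CDK6 starts the phosphorylation of RB in G1, and cyclin E and then cyclin A with CDK2 carry the cell into and through S phase. Cyclin A and cyclin B with CDK1 drive mitosis. RB and its relatives p107 and p130 hold E2F factors in check, and E2F activity in turn raises transcription of cyclin E, cyclin A, CDK1 and the DNA replication genes. The INK4 inhibitors bind CDK4 and CDK6, and the CIP/KIP inhibitors act on a wider set of cyclin-CDK complexes. In adult liver most hepatocytes rest outside the cycle, whereas liver tumour lines cycle in culture.

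RNF43 and the liver markers both went against the labels. RNF43, read by its single probe set, gave 8.19, 8.22 and 8.41 on the arrays labelled RNF43 siRNA, against 7.65, 7.79 and 7.45 on the control arrays. The named target was thus 1.56-fold higher in the siRNA group (95% confidence interval 1.25 to 1.95, limma adjusted p = 0.0098). A two-sided exact permutation test returned p = 0.1, the smallest that 3 against 3 arrays allow. Without both arrays numbered 3 this difference no longer passed (log2 difference 0.48, adjusted p = 0.053, with 0.00585 to 0.053 over the alternatives). Directions below therefore follow the array labels, and no loss of RNF43 mRNA was measured. Exchanged labels would turn every direction below, and whether the labels or this 1 probe set are at fault was not tested.

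Of 13 hepatocyte markers with a probe set, 12 averaged 3.45 to 5.18, below the filter of 5.83 that defined a tested gene, ALB and APOA1 among them. AFP alone lay above it, at 6.41 ± 0.26 on the arrays labelled RNF43 siRNA and 7.01 ± 0.11 on the control arrays (SD, n = 3 each), which did not pass (adjusted p = 0.0878). The summed linear signal of the 13 was 326 to 399 on the arrays labelled RNF43 siRNA and 469 to 551 on the control arrays. Fibroblast markers were brighter, with 7 of 13 tested, 5 fallen and 0 risen, COL3A1 by most at 2.54-fold. Among all tested genes 11.1% fell and 11.5% rose. The summed linear signal of the fibroblast markers was 17103 to 17760 on the arrays labelled RNF43 siRNA and 22845 to 24260 on the control arrays. LUM averaged 13.17 and 13.36 in these groups, while COL1A2, PDGFRB and THY1 lay below the filter. None of 9 leukocyte markers and 1 of 9 endothelial markers, PECAM1, lay above it, and no marker was at 0 on any array. The part of these marker levels in the results below was not tested, and in bulk RNA fewer cells of a type and less RNA per cell cannot be told apart.

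CCNE2 and CDK2 transcripts rose most, and the list as a whole had more risen than fallen members. Of the 48 tested genes, 18 rose (37.5%), 5 fell (10.4%) and 25 did not pass. Among all tested genes 11.5% rose and 11.1% fell. The members had a median log2 difference of 0.15, against -0.003 for all tested genes. They were also brighter than most, with a median log2 signal of 11.19 against 9.61 for all tested genes. In the upper 30% of probe sets, where 14.9% of all genes rose and 14% fell, 17 of 46 members rose and 5 fell. CCNE2 and CDK2 were the members that changed at least 2-fold, and 7 risen members reached 1.5-fold, while 0 fallen members did. Ranges of the array values lay apart for 28 of the 48 (58.3%), which included all 23 that passed, against 38.9% of all tested genes. Of these 28, 21 lay higher and 7 lay lower in the RNF43 siRNA group, where 19.1% of all tested genes lay higher and 19.8% lower.

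**Figure D1:**
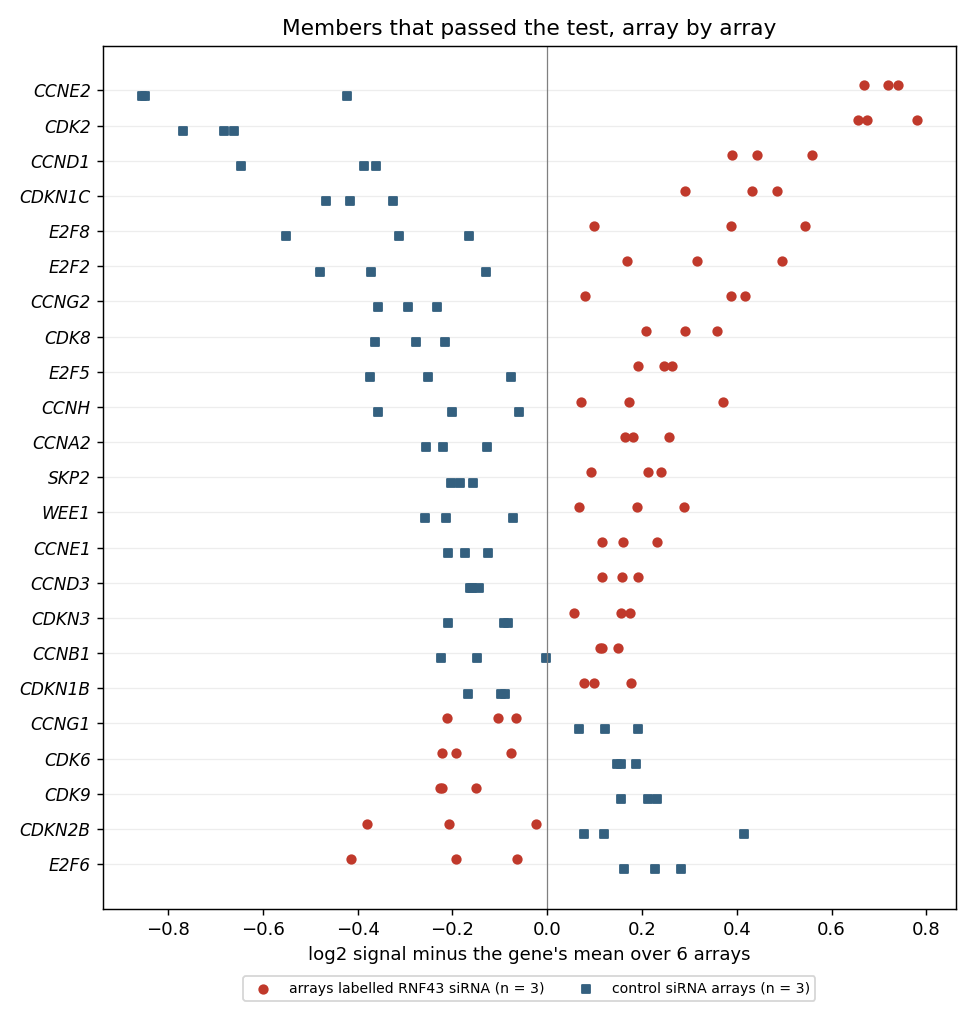
Log2 signal of each of the 23 members that passed the test, on each array, as the distance from the gene's own mean over 6 arrays. Circles are the 3 arrays labelled RNF43 siRNA and squares the 3 control siRNA arrays. In all 23 rows the groups are apart, and the widest gaps are those of CCNE2 and CDK2.

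In G1, both tested D cyclins rose while their kinases did not. CCND1, which encodes cyclin D1, the partner that brings growth signals to CDK4 and CDK6, gave 11.59, 11.76 and 11.64 on the arrays labelled RNF43 siRNA and 10.81, 10.55 and 10.84 on the control arrays. All 3 of the first group lay well above the control arrays, a rise of 1.90-fold (95% confidence interval 1.65 to 2.19, adjusted p = 7.41e-05). A fainter CCND1 probe set differed by only 0.30 (SE 0.35) and did not pass, and the mean of both probe sets gave 0.61 (adjusted p = 0.0524, with 1.47e-06 to 0.0524 over the alternatives). CCND3, cyclin D3, rose 1.24-fold, at 12.31, 12.35 and 12.27 on the arrays labelled RNF43 siRNA and 11.99, 12.01 and 11.99 on the control arrays. Its only other probe set averaged 2.91, far below the filter, and averaging it in gave a CCND3 log2 difference of -0.01, in place of 0.31. CCND2, cyclin D2, averaged 5.62 ± 0.27 on the arrays labelled RNF43 siRNA and 5.18 ± 0.73 on the control arrays (SD, n = 3 each), below the filter, and was not tested.

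CDK6 fell 1.25-fold. Its log2 signals were 12.99, 12.88 and 12.85 on the arrays labelled RNF43 siRNA, against 13.23, 13.22 and 13.26 on the control arrays (adjusted p = 0.00442). Of 6 other tested CDK6 probe sets, 5 differed in the same direction and 1 of these passed, at -0.51 (SE 0.07). The mean over all CDK6 probe sets gave -0.33 and did not pass (adjusted p = 0.0806, over the alternatives 4.16e-04 to 0.0806). CDK4, the other cyclin D kinase, overlapped between the groups, at 13.04 ± 0.10 on the arrays labelled RNF43 siRNA and 13.19 ± 0.10 on the control arrays (SD, n = 3 each). Its log2 difference of -0.15 had a 95% confidence interval of -0.32 to 0.02.

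All 4 genes of the cyclin E, cyclin A and CDK2 step rose, against 11.5% of all tested genes. CCNE2, cyclin E2, gave 9.78, 9.85 and 9.83 on the arrays labelled RNF43 siRNA and 8.26, 8.27 and 8.69 on the control arrays. The lowest of the first group stood more than 1 log2 unit above the highest control array, and the rise was 2.67-fold (95% confidence interval 2.20 to 3.24, adjusted p = 4.25e-05). CDK2, the kinase that cyclins E and A activate, gave 11.74, 11.87 and 11.76 on the arrays labelled RNF43 siRNA, against 10.32, 10.42 and 10.40 on the control arrays. That was a rise of 2.65-fold (2.37 to 2.97, adjusted p = 2.00e-06). A second tested probe set moved the same way for each gene, by 1.27 (SE 0.17) for CCNE2 and 1.57 (SE 0.12) for CDK2. Both calls held in all 17 alternatives, with log2 differences of 1.26 to 1.56 for CCNE2 and 1.37 to 1.74 for CDK2.

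The paralogue CCNE1, cyclin E1, rose by 1.27-fold, with 10.62, 10.55 and 10.51 on the arrays labelled RNF43 siRNA and 10.18, 10.27 and 10.22 on the control arrays. No array of one group fell within the range of the other. A second CCNE1 probe set averaged 2.91, with -2.35 as its difference, and including it in a mean gave a CCNE1 log2 difference of -1.01 that did not pass (adjusted p = 0.0836, over the alternatives 0.00196 to 0.0836). CCNA2, cyclin A2, which takes over CDK2 in S phase and also activates CDK1, rose 1.32-fold. Its values were 11.36, 11.45 and 11.38 on the arrays labelled RNF43 siRNA and 10.97, 10.94 and 11.07 on the control arrays. The other tested CCNA2 probe set differed in the same direction by 0.21 (SE 0.08), without passing.

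**Figure D2:**
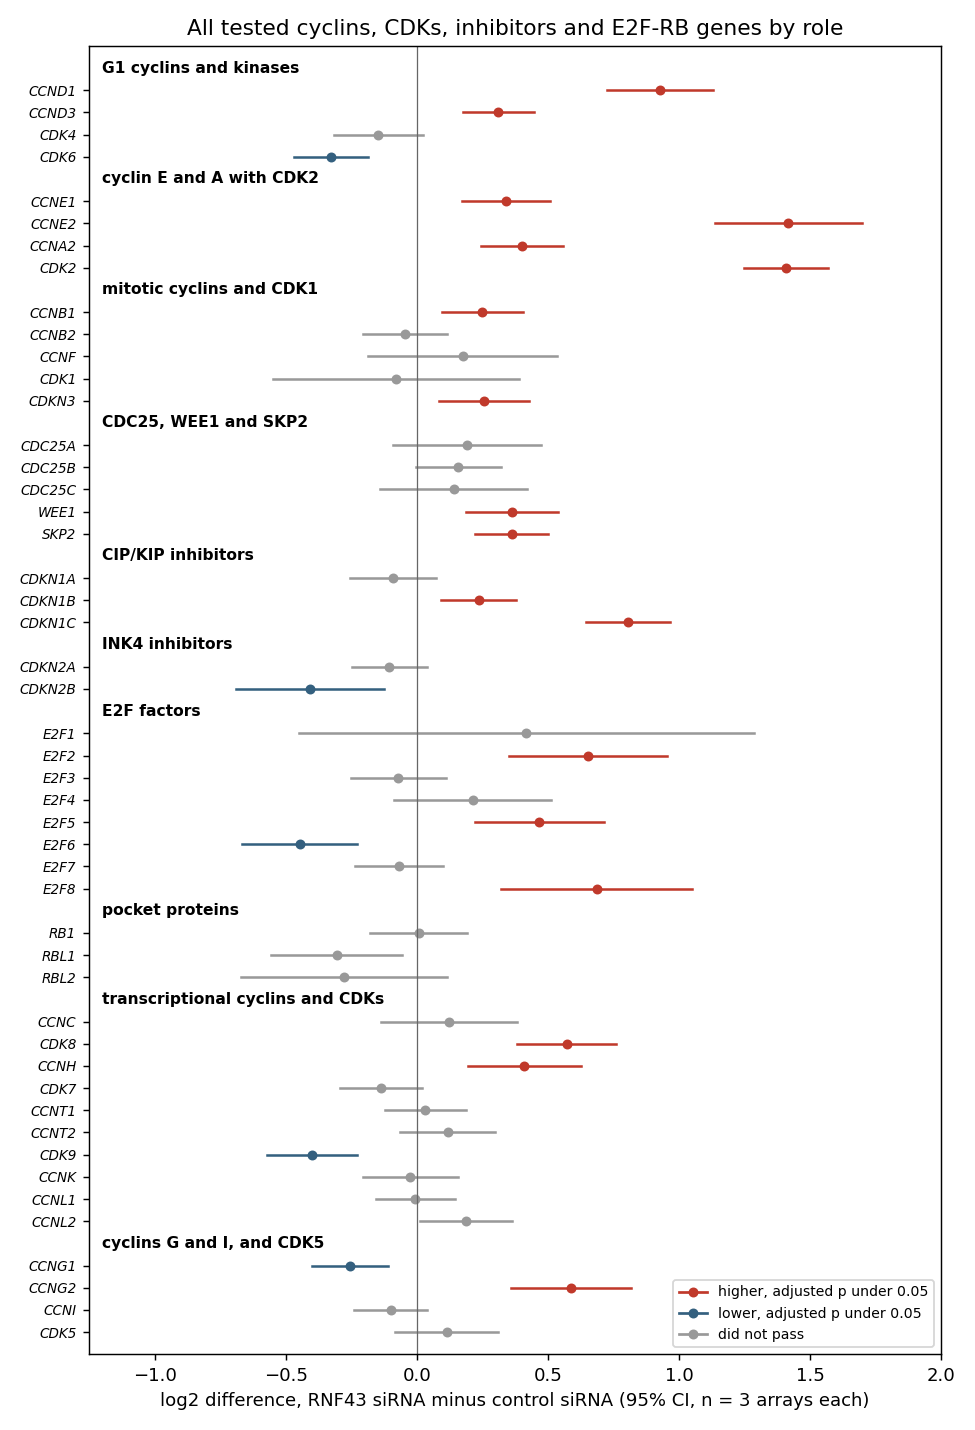
Log2 difference between the arrays labelled RNF43 siRNA and the control siRNA arrays for all 48 tested members, grouped by role, with 95% confidence intervals from limma (n = 3 arrays each). Red marks the 18 that rose, blue the 5 that fell and grey the 25 that did not pass; the cyclin E, cyclin A and CDK2 group is the only 1 in which every member rose.

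Among the mitotic regulators the changes were small. CCNB1, cyclin B1, rose 1.19-fold, with 12.91, 12.95 and 12.92 on the arrays labelled RNF43 siRNA and 12.58, 12.65 and 12.80 on the control arrays. CDKN3, a phosphatase that acts on CDK2 and CDK1, also rose 1.19-fold, at 10.59 ± 0.06 on the arrays labelled RNF43 siRNA and 10.34 ± 0.07 on the control arrays (SD, n = 3 each). The CCNB1 call was lost in 7 of 17 alternatives (adjusted p 0.00397 to 0.259 over all). These were the fits without replicate 1 or 2 of either group, and those with no intensity trend or the mean of its probe sets. The last was that without probe sets that may cross-hybridize. The other tested CCNB1 probe set differed by 0.15 (SE 0.09) and did not pass. The CDKN3 call was lost without any 1 array except control replicate 3, and with no intensity trend (adjusted p 0.012 to 0.149). The cyclin B paralogue CCNB2 overlapped between the groups, at 11.80, 11.70 and 11.87 on the arrays labelled RNF43 siRNA and 11.80, 11.79 and 11.90 on the control arrays. Its log2 difference of -0.04 had a 95% confidence interval of -0.20 to 0.11. The other tested CCNB2 probe set differed by 0.34 (SE 0.23) without passing. CDK1, the mitotic kinase, differed by -0.08 (-0.55 to 0.39) and CCNF, the F-box protein cyclin F, by 0.17 (-0.19 to 0.54), and neither passed. The 3 other tested CDK1 probe sets differed in the other direction, by 0.18 (SE 0.10), 0.21 (SE 0.09) and 0.51 (SE 0.47), also without passing, and the mean of all CDK1 probe sets gave 0.21 and did not pass.

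The promoters of the B cyclins are shown because 1 paralogue rose and the other did not pass on their brightest probe sets. No test compared the paralogues. Both of the promoters shown are textbook cell cycle promoters. They run from 250 bases before to 50 after the start in RefSeq's table for GRCh38.p14, 5′ to 3′ on the gene's strand. Capitals mark the CCAAT box, written CCAAT on either strand, and the cell cycle homology region (CHR), written TTTGAA or TTCGAA on either strand. CCNB1 lies at chr5:69166900-69167199 on the plus strand and CCNB2 at chr15:59104896-59105195 on the plus strand.
CCNB1: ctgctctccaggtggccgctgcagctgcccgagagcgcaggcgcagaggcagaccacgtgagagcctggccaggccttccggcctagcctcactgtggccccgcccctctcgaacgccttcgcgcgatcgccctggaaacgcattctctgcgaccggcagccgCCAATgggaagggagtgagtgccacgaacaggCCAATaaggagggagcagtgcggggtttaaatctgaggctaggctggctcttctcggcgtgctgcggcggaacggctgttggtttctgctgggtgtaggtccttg
CCNB2: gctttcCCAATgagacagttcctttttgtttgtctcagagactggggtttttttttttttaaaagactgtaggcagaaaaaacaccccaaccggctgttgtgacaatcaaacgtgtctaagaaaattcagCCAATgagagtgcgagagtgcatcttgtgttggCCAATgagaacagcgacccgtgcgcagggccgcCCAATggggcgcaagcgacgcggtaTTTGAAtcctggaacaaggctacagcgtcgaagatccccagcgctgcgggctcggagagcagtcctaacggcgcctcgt
CCNB1 held a CCAAT box 87 and 55 bases before the start and neither TTTGAA nor TTCGAA in this window. Other spellings of a CHR were not searched for. CCNB2 held 4 CCAAT boxes, 244, 120, 87 and 54 bases before the start, and a CHR 29 bases before it. No match overlapped another. Both motifs are common: of 27305 promoters of this length, 35.7% held a CCAAT and 16.6% a CHR.

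Genes that set CDK activity and inhibitor turnover included 2 that rose and 0 that fell of 5 tested. Of all tested genes 11.5% rose and 11.1% fell. WEE1, the kinase that holds CDK1 and CDK2 inactive, gave 12.34, 12.44 and 12.22 on the arrays labelled RNF43 siRNA and 11.94, 12.08 and 11.90 on the control arrays, 1.29-fold higher (adjusted p = 0.00851). SKP2, the ubiquitin ligase subunit that targets the inhibitor p27, gave 13.44, 13.41 and 13.29 on the arrays labelled RNF43 siRNA and 13.04, 12.99 and 13.01 on the control arrays, also 1.29-fold higher (adjusted p = 0.00251). Neither gene's groups overlapped, and other tested probe sets, 1 for WEE1 and 2 for SKP2, differed in the same direction without passing. The CDC25 phosphatases, which remove the phosphates that WEE1 adds, did not pass. Their log2 differences were 0.19 (95% confidence interval -0.09 to 0.47) for CDC25A, 0.16 (-0.00 to 0.32) for CDC25B and 0.14 (-0.14 to 0.42) for CDC25C. The other tested CDC25A probe sets differed in the other direction, by -0.10 (SE 0.24) and -0.43 (SE 0.22). That of CDC25C differed by 0.24 (SE 0.16), and none of them passed.

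Of the 3 CIP/KIP inhibitor genes 2 rose, and of the 2 tested INK4 genes 1 fell. Among all tested genes 11.5% rose and 11.1% fell. CDKN1C, which encodes the CIP/KIP inhibitor p57, rose 1.75-fold, with 13.41, 13.46 and 13.27 on the arrays labelled RNF43 siRNA and 12.56, 12.65 and 12.51 on the control arrays (95% confidence interval 1.57 to 1.95, adjusted p = 4.25e-05). All 3 other tested CDKN1C probe sets also rose, by 0.85 to 1.14 on the log2 scale, and the call held in all 17 alternatives. CDKN1B, which encodes p27, rose 1.18-fold, at 12.07, 12.10 and 12.17 on the arrays labelled RNF43 siRNA and 11.83, 11.90 and 11.91 on the control arrays. That call was lost without RNF43 siRNA replicate 2 or 3 or control replicate 1 or 2. It was also lost with no intensity trend (adjusted p 0.00389 to 0.108 over all alternatives). CDKN1A, the p53 target that encodes p21, overlapped between the groups at 11.41 ± 0.06 on the arrays labelled RNF43 siRNA and 11.50 ± 0.09 on the control arrays (SD, n = 3 each).

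Of the INK4 genes, CDKN2B, which encodes p15, fell 1.33-fold. It gave 9.11, 8.93 and 8.76 on the arrays labelled RNF43 siRNA and 9.25, 9.55 and 9.21 on the control arrays, so that the highest of the first group came close to the lowest control array. The call was lost in 9 of 17 alternatives, among them the fits without RNF43 siRNA replicate 2 or 3 or control replicate 1 or 2 (adjusted p 0.0102 to 0.672 over all alternatives). CDKN2A, whose locus encodes p16 and ARF, averaged 12.64 ± 0.07 on the arrays labelled RNF43 siRNA and 12.75 ± 0.05 on the control arrays (SD, n = 3 each) and did not pass. The other tested CDKN2A probe set differed in the other direction, by 0.07 (SE 0.06), also without passing. CDKN2D, p19, lay below the filter and was not tested, with 6.24, 6.73 and 6.44 on the arrays labelled RNF43 siRNA and 5.92, 5.70 and 3.48 on the control arrays. A dimmer CDKN2D probe set, with a mean of 2.81, differed in the other direction, by -2.56. CDKN2C, p18, had no probe set naming it alone and was not analysed here.

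**Figure D3:**
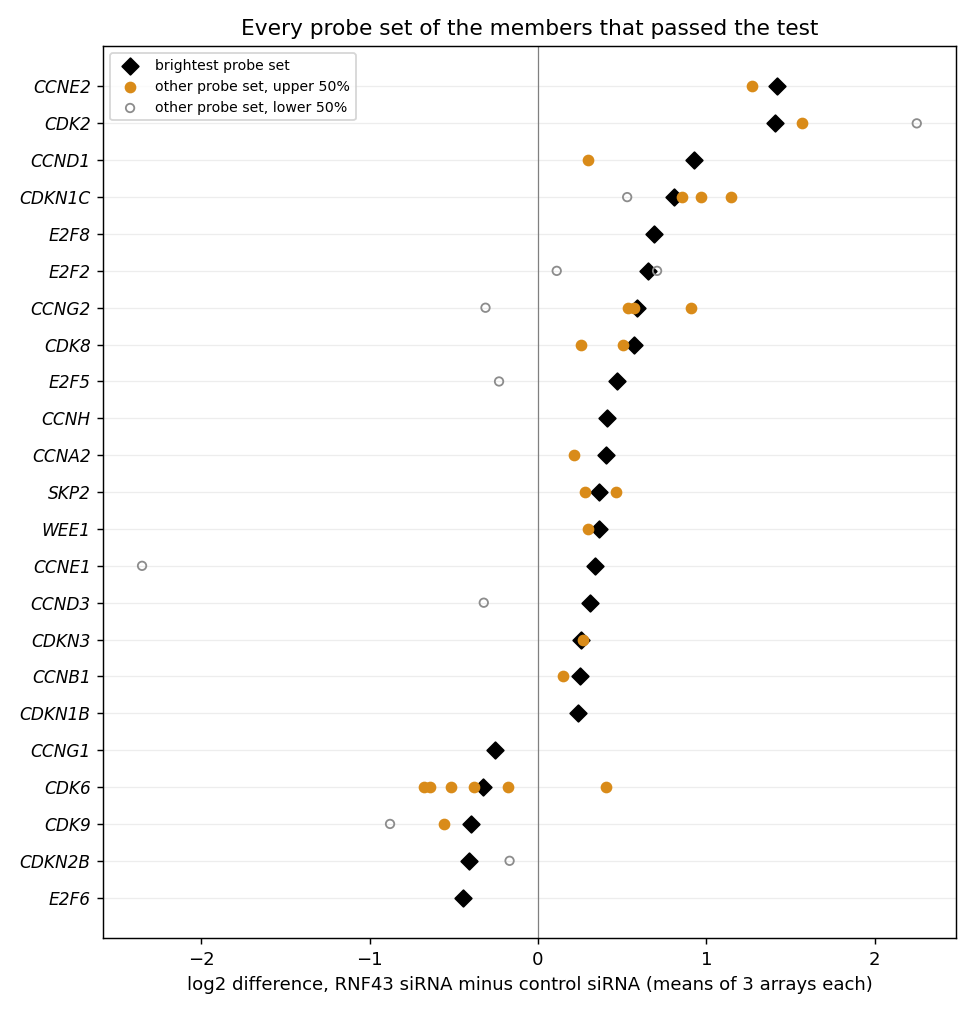
Log2 difference between the arrays labelled RNF43 siRNA and the control siRNA arrays for each probe set of the 23 members that passed. Diamonds are the brightest probe sets, filled circles other probe sets in the upper 50% of signal and open circles those below it. Of 24 filled circles, 23 lie on the diamond's side of 0, the exception being a CDK6 probe set at 0.40.

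Other probe sets served as a check on the brightest. Of the 23 members that passed, 13 had another tested probe set, 24 in all. Of these, 23 differed in the same direction, 9 passed in that direction and 0 passed in the other, where 17.7% of all 22660 tested probe sets passed, 9.01% higher and 8.65% lower. Their genes had already passed on the same arrays, so agreement above these shares was in part built in. Dimmer probe sets, not tested, differed in the other direction for CCNE1, CCND3, CCNG2 and E2F5. Those of CDK2, CDKN1C, E2F2, CDKN2B and CDK9 differed in the same direction. In this probe set fit the brightest CDKN3 and CDKN2B probe sets did not pass (limma adjusted p = 0.051 and 0.062). The 6 genes with a second probe set passing the same way were CCNE2, CDK2, CDKN1C, CDK6, CDK8 and CCNG2. For 10 members, CCNE1, CCND3, CDKN1B, CDKN2B, E2F2, E2F5, E2F6, E2F8, CCNH and CCNG1, no other tested probe set was there to check the call.

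Of the 8 E2F genes, 3 rose, 1 fell and 4 did not pass, where 11.5% of all tested genes rose and 11.1% fell. E2F2, an activator E2F, gave 8.80, 8.98 and 8.66 on the arrays labelled RNF43 siRNA and 8.12, 8.36 and 8.01 on the control arrays, a rise of 1.57-fold (95% confidence interval 1.28 to 1.94, adjusted p = 0.0064). E2F8, an atypical E2F that represses transcription without a DP partner, rose 1.61-fold, with 8.0, 8.45 and 8.29 on the arrays labelled RNF43 siRNA and 7.59, 7.35 and 7.74 on the control arrays. E2F5, which works with p130 as a repressor, rose 1.38-fold, at 9.02, 9.00 and 8.95 on the arrays labelled RNF43 siRNA and 8.38, 8.68 and 8.50 on the control arrays. E2F6, a repressor that acts without pocket proteins, fell 1.36-fold, with 9.70, 9.92 and 10.05 on the arrays labelled RNF43 siRNA and 10.27, 10.34 and 10.39 on the control arrays (adjusted p = 0.00933).

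None of these 4 overlapped between the groups. The E2F8 call was lost without replicate 2 of either group (adjusted p 0.00426 to 0.068 over all alternatives) and the E2F5 call without control replicate 1 (0.00542 to 0.931). With the mean of all probe sets, which takes in dim ones, the E2F5 log2 difference was 0.12 and that of E2F2 0.49, and both calls were lost (adjusted p 0.931 for E2F5 and 0.498 for E2F2, whose range was 7.14e-04 to 0.498). E2F1, another activator, was noisy, with 7.86, 8.24 and 7.16 on the arrays labelled RNF43 siRNA and 6.34, 7.78 and 7.88 on the control arrays. The groups overlapped, and the E2F1 log2 difference of 0.42 had a 95% confidence interval of -0.45 to 1.29. A second tested E2F1 probe set, less variable between arrays, differed by 0.07 (SE 0.17) and did not pass. E2F3, E2F4 and E2F7 differed by -0.07, 0.21 and -0.07 and did not pass. Their other tested probe sets differed by -0.24 (SE 0.12), -0.32 (SE 0.17) and -0.24 (SE 0.21), also without passing. Only that of E2F4 went in the other direction.

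The promoters of these activators, E2F2 and E2F1, are shown because both hold the binding letters of their own family, while E2F2 rose and E2F1 did not pass. No test compared the genes, and the E2F1 confidence interval of -0.45 to 1.29 takes in the E2F2 log2 difference of 0.65. Capitals mark the E2F motif, spelled TTTCCCGC, TTTCGCGC, TTTGCCGC or TTTGGCGC on either strand, and CCAAT or CHR as above. E2F2 lies at chr1:23531184-23531483 and E2F1 at chr20:33686336-33686635, both on the minus strand in RefSeq's GRCh38.p14 table.
E2F2: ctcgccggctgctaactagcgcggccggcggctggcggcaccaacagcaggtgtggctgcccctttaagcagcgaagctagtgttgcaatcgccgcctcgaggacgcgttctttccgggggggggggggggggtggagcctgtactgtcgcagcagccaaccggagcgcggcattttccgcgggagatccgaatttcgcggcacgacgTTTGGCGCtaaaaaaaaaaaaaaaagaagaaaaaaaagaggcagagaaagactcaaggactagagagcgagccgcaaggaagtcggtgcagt
E2F1: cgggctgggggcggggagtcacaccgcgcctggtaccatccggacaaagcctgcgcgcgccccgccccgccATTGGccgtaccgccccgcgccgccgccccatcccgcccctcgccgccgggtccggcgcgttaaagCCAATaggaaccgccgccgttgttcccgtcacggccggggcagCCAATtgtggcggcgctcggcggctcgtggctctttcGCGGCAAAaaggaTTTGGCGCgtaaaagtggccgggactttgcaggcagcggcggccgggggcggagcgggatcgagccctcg
E2F2 held TTTGGCGC 42 bases before the start and no CCAAT. E2F1 held TTTGGCGC 20 bases before the start, TTTGCCGC read from the other strand 33 bases before it, and 3 CCAAT boxes. Across the list, 43 of 51 members had a promoter in the table, and the first listed was used. An E2F motif was present in 6 of these 43 (14%), in 1 of 11 risen, 0 of 5 fallen and 5 of 25 members that did not pass, against 3.33% of all 27305 promoters and 5.45% of those of tested genes. CCAAT was present in 18 of the 43 (41.9%) and a CHR in 7 (16.3%). A match describes these letters only. CCND1, CCND2, CCNE2, CDK2, CDKN1C, E2F5, E2F8 and WEE1 were not matched.

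No pocket protein gene passed. RB1 was level, at 10.83, 10.99 and 11.08 on the arrays labelled RNF43 siRNA and 10.93, 10.92 and 11.03 on the control arrays, a log2 difference of 0.01 with a 95% confidence interval of -0.18 to 0.19. RBL1, which encodes p107, gave 8.44, 8.31 and 8.28 on the arrays labelled RNF43 siRNA and 8.62, 8.58 and 8.75 on the control arrays. These groups did not overlap, but the RBL1 log2 difference of -0.31 missed the threshold (adjusted p = 0.0786). RBL2, which encodes p130, varied more between arrays, with 10.00, 10.41 and 10.83 on the arrays labelled RNF43 siRNA and 10.52, 10.64 and 10.91 on the control arrays. Its log2 difference of -0.28 did not pass (adjusted p = 0.304). It passed as lower in 3 of 17 alternatives, at -0.48 without RNF43 siRNA replicate 3, at -0.53 when its probe sets were averaged and at -0.28 with a replicate block (adjusted p 0.0177 to 0.786 over all alternatives). The other tested RBL2 probe set differed by -0.78 (SE 0.28) without passing.

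Of the 10 cyclins and CDKs that act on RNA polymerase II, 2 rose, 1 fell and 7 did not pass, where 22.6% of all tested genes passed. CDK8, the kinase of the Mediator complex, gave 10.10, 10.25 and 10.18 on the arrays labelled RNF43 siRNA and 9.61, 9.67 and 9.53 on the control arrays, a rise of 1.49-fold (adjusted p = 0.00106). A second CDK8 probe set rose by 0.51 (SE 0.10) on the log2 scale. Its cyclin, CCNC, overlapped between the groups and differed by 0.12 (95% confidence interval -0.14 to 0.38). CCNH, the cyclin of the CDK-activating kinase, rose 1.33-fold, with 12.01, 11.91 and 12.21 on the arrays labelled RNF43 siRNA and 11.64, 11.48 and 11.78 on the control arrays. That call was lost without control replicate 2 and with no intensity trend (adjusted p 6.88e-05 to 0.0568 over all alternatives). CDK7, the kinase bound by cyclin H, differed by -0.14 (-0.29 to 0.02) and did not pass.

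CDK9, the kinase of the elongation factor P-TEFb, fell 1.32-fold. Its values were 9.79, 9.87 and 9.79 on the arrays labelled RNF43 siRNA and 10.25, 10.23 and 10.17 on the control arrays (adjusted p = 0.0047). With the mean of its probe sets, 1 of them below the filter, the CDK9 log2 difference was -0.61 and did not pass (adjusted p = 0.106, over the alternatives 9.16e-04 to 0.106). The cyclins that pair with CDK9, CCNT1 and CCNT2, differed by 0.03 (-0.12 to 0.19) and 0.12 (-0.06 to 0.30). CCNK, the partner of CDK12 and CDK13, and the splicing-linked cyclins CCNL1 and CCNL2 differed by -0.02, -0.01 and 0.19, and none passed.

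The G-type cyclins, which do not drive the cycle, changed in opposite directions. CCNG2, linked to cell cycle arrest, rose 1.50-fold, with 9.98, 10.29 and 10.32 on the arrays labelled RNF43 siRNA and 9.61, 9.55 and 9.67 on the control arrays. Of 3 other tested CCNG2 probe sets, 2 also rose. The mean of all CCNG2 probe sets gave 0.46 and did not pass (adjusted p = 0.118, over the alternatives 1.61e-04 to 0.118). CCNG1, a p53 target, fell 1.19-fold, at 13.27, 13.13 and 13.23 on the arrays labelled RNF43 siRNA and 13.46, 13.40 and 13.53 on the control arrays. The CCNG1 call was lost without RNF43 siRNA replicate 2, control replicate 1 or control replicate 3, and with each array centred on its median (adjusted p 0.00189 to 0.08 over all alternatives). CCNI, cyclin I, and CDK5, a kinase best known from neurons, differed by -0.10 (95% confidence interval -0.24 to 0.04) and 0.11 (-0.08 to 0.31).

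**Figure D4:**
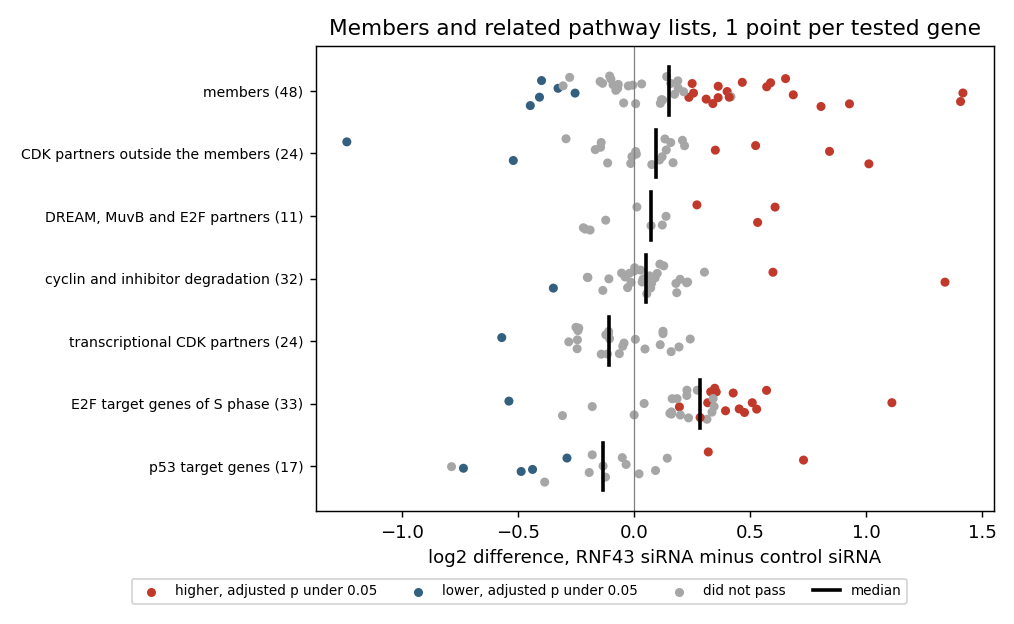
Log2 difference of each tested gene between the arrays labelled RNF43 siRNA and the control siRNA arrays, for the members and 6 related lists, with the number tested in brackets. Red points rose, blue points fell, grey points did not pass, and black bars are medians. The highest median is that of the S phase E2F target genes, at 0.28.

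The 6 lists of related genes outside the members were counted in the same fit, in which 22.6% of all genes passed. Target genes of E2F in S phase were the list with most calls, with 14 risen and 1 fallen of 33 tested and a median log2 difference of 0.28, against -0.003 for all tested genes. SLBP, which binds histone mRNA, rose 2.16-fold and MCM7, a subunit of the replicative helicase, 1.49-fold. PRIM1, the small primase subunit, was the target gene that fell, by 1.45-fold. Of 11 DREAM, MuvB and E2F partner genes, 3 rose and 0 fell. TFDP1, the DP1 partner that activator E2Fs need to bind DNA, gave 12.22, 12.26 and 12.09 on the arrays labelled RNF43 siRNA and 11.60, 11.58 and 11.57 on the control arrays, a rise of 1.52-fold. FOXM1, which activates genes of G2 and mitosis, rose 1.45-fold and MYBL1, a MYB family factor, 1.21-fold.

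Other CDKs, cyclins and their adaptors had 4 risen and 2 fallen of 24 tested, with 2 risen without RNF43 siRNA replicate 2 or control replicate 1. CDK14, a cyclin Y-dependent kinase, fell 2.36-fold, with 8.76, 8.72 and 8.64 on the arrays labelled RNF43 siRNA and 10.03, 9.91 and 9.90 on the control arrays. Its cyclin, CCNY, rose 1.79-fold, with 10.41, 10.37 and 10.39 on the arrays labelled RNF43 siRNA and 9.44, 9.52 and 9.68 on the control arrays. Neither pair of groups overlapped, and the partners moved in opposite directions. CCNO, cyclin O, known from multiciliated cells, rose 1.44-fold.

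Genes that degrade cyclins and inhibitors had 2 risen and 1 fallen of 32 tested, and 5 risen and 2 fallen without RNF43 siRNA replicate 3. CUL4B, a cullin scaffold, rose 2.53-fold, FBXO5, the inhibitor of the anaphase-promoting complex (APC/C), rose 1.51-fold, and ANAPC13, an APC/C subunit, fell 1.27-fold. Partners of the transcriptional CDKs had 0 risen and 1 fallen of 24 tested in limma, GTF2H1 of the factor TFIIH at 1.48-fold lower, and 1 risen and 2 fallen without RNF43 siRNA replicate 3. Without control replicate 3 the fallen ones also numbered 2. Among p53 target genes, the list to which CDKN1A and CCNG1 are related, 2 rose and 4 fell of 17 tested, and 1 rose without RNF43 siRNA replicate 1 or 2 or control replicate 2. MDM2, the ubiquitin ligase of p53, fell 1.35-fold and XPC, a damage sensor, 1.66-fold, whereas SESN1, a stress-induced inhibitor of growth signalling, rose 1.66-fold.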

How the data were processed

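RNA from 6 arrays, 3 per group, was compared. The deposited values are log2 signals, for which the submitters' processing notes name MAS5. The sources used here give no version or target for its scaling. The log base was inferred: taken as base 2, linear means trimmed by 2% agreed at 497.0 to 497.2 across arrays. Medians were 5.89 to 6.02, and Pearson's r across tested genes was 0.987 to 0.991 within groups and 0.975 to 0.980 between them. The number of arrays limits the precision.

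Gene names came from the platform annotation, by which 41091 of 54613 probe sets name 1 gene. Each gene was read by its brightest such probe set, kept if its mean lay in the upper 50% (above 5.83) and tested with limma 3.58.1 in R 4.3.3 (lmFit, eBayes with trend, two-sided, Benjamini-Hochberg). The fit was tested on simulated data. Values are means ± SD. Named genes were RNF43, all members, and up to 3 genes with the smallest p in each list. Members and lists were chosen with earlier results of these data known. The alternatives covered filters, normalization, added signal, variance model, probe sets, array weights, a replicate block and leaving out arrays; the last kept the same probe sets and genes. Leaving out both arrays numbered 3 was chosen after seeing the data.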

Additional observations from a re-analysis of the deposited data

How the results depend on the processing

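The count of changed genes was 2684, and 1739 to 2653 without any 1 array. The mean of all probe sets of a gene gave 1536, and the lowest count without 1 array was that without RNF43 siRNA replicate 2. Risen members numbered 18, with 13 to 18 without any 1 array and 11 with the mean of all probe sets. Fallen members numbered 5, with 3 to 5 without any 1 array, and 3 with arrays centred on their medians, with no intensity trend and with the mean of all probe sets. The 3 with the mean of all probe sets held 2 of the main 5, and RBL2 in addition. The 5 without RNF43 siRNA replicate 3 held 4 of the main 5, and RBL2. The counts without control replicate 1 or RNF43 siRNA replicate 2 were the lowest for fallen members, at 3. RNF43 differed by 0.64, and by 0.55 to 0.72 without any 1 array; without both arrays numbered 3 it gave 0.48 and did not pass. With the mean of all probe sets, CCND3 turned to -0.0053 and CCNE1 to -1.01, each averaged with a probe set below the filter (mean log2 signal 2.91). Of the 23 members that passed, 15 passed in each fit without 1 array (12 risen, 3 fallen), and 8 in every alternative that tested them: CCNE2, CCNA2, CDK2, WEE1, SKP2, CDKN1C, E2F6 and CDK8. SKP2 could not be tested without the probe sets that may cross-hybridize (names with _x_at or _s_at). With a replicate block, 3908 genes, 20 risen and 7 fallen members passed. The numbers were not shown to pair the samples. Deviations of same-numbered arrays correlated at 0.16, 0.08 and 0.27, the last being the highest of all pairs between the groups. Arrays numbered 3 correlated with those numbered 1 and 2 of the other group at -0.21 to -0.09. Control replicate 2 correlated at 0.09 with RNF43 siRNA replicate 1 and at 0.08 with replicate 2. Whether same-numbered samples were handled together was not tested, and the main fit takes no account of the numbers. Over all alternatives, risen S phase E2F targets numbered 8 to 25, risen CDK partners 2 to 5, degradation genes 0 to 6 risen and 0 to 3 fallen, p53 targets 1 to 2 risen and 2 to 6 fallen, and partners of transcriptional CDKs 0 to 3 risen and 1 to 4 fallen.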

Other observations

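Some members differed more between arrays of a group than between the groups, which was noticed after their values were seen. CDK1 gave 13.23 on RNF43 siRNA replicate 3 and 13.22 on control replicate 3, while the other 4 arrays lay between 12.41 and 12.73. CCNC was also highest on the arrays numbered 3 on its brightest probe set, with 12.43 and 12.41 on the arrays numbered 3 and 11.97 to 12.20 on the others. On the second CDK1 probe set the array numbered 3 was also highest in each group, by a smaller margin. It gave 12.46 against 12.26 and 12.13 for RNF43 siRNA, and 12.22 against 12.00 and 12.09 for the control. The next brightest CDK1 probe set did likewise, with 11.69 against 11.58 and 11.58 for RNF43 siRNA and 11.57 against 11.29 and 11.35 for the control. On the faintest the arrays numbered 3, at 6.62 and 6.21, lay between the others of their group.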
